A study of Saccharomyces cerevisiae with 109 samples.

Results

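Expression of 36 genes of autophagy and vacuolar proteolysis was followed in Saccharomyces cerevisiae on 109 arrays, out of 6297 genes in the table. The genes were chosen by name, with earlier results of these data known, and the rule itself uses no measured value. They comprise 29 ATG genes, SNX4, VPS30 and 5 vacuolar protease genes (PEP4, PRB1, PRC1, LAP4 and APE3), which fall into 6 roles. Macroautophagy wraps cytoplasm in a membrane that begins as a phagophore and closes as the autophagosome, which then fuses with the vacuole, the lysosome of yeast. The Atg1p kinase complex starts the process, vesicles with Atg9p and a phosphatidylinositol 3-kinase complex supply and mark the membrane, and a pair of ubiquitin-like conjugation systems attaches Atg8p to it. The vacuolar proteases then break down the cargo, and in growing cells the same machinery delivers some of these enzymes through the cytoplasm-to-vacuole (Cvt) pathway.

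Rpd3p is a histone deacetylase that works in a large complex, Rpd3L, which holds Pho23p and Ume6p, and in a small complex, Rpd3S, which holds Rco1p. Each array gave the log2 ratio of stressed to unstressed cells of the same strain, except for 3 arrays that set unstressed rpd3Δ cells against unstressed wild-type cells. At 30 min of 0.4 mM H2O2 there were 3 arrays each of the rpd3Δ, pho23Δ, rco1Δ, msn2Δ msn4Δ rpd3Δ and msn2Δ msn4Δ strains, 4 of ume6Δ, and 8 of wild type (BY4741). The H4KQ strain (RMY491), with histone H4 lysines turned into glutamines, was compared in SC-Trp medium with its own wild type NSY429, on 3 arrays each. The rpd3Δ and wild-type strains also went through 2 time courses each of heat shock (25°C to 37°C), NaCl, and stress relief (37°C to 25°C), and the rpd3Δ, pho23Δ, rco1Δ and wild-type strains through 1 time course of H2O2. Single arrays followed wild-type cells in heat shock with 10 μM trichostatin A (TSA, a deacetylase inhibitor) or with DMSO, and rpd3Δ cells that carried a plasmid with catalytically inactive rpd3H150:151A, with RPD3 or without insert. The methods name SC-leucine medium for the experiments with inactive rpd3, and YPD where nothing else is stated. For the H2O2 and NaCl arrays the labels give 30°C for unstressed cells. The channel sources give 0.75 M NaCl and the descriptions 0.7 M. In heat shock culture 2 the labels give 30°C for unstressed rpd3Δ cells, against 25°C for wild-type cells, and the methods give 25°C for the heat shock time courses. Msn2p and Msn4p, removed in the double and triple mutants, are the general stress activators. According to the methods the rpd3Δ strain grows more slowly than wild type, while pho23Δ cells double at the same rate as wild type. The authors cite the pho23Δ strain for their view that slow growth cannot account for the defects. The part of growth rate in the values below was not tested. A legend of the study calls the H2O2 replicates of H4KQ, pho23Δ, rpd3Δ and wild-type cells biological, and the labels say of no group that its replicates came from separate cultures. For the other groups p-values cover the spread between arrays, which may be technical.

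Between 4288 and 6115 genes were measured per array. ATG29, ATG15 and ATG10 had the fewest values, on 82, 83 and 86 of 109 arrays, and LAP4 and APE3 were measured on all 109. RPD3 lay at -2.57 in unstressed rpd3Δ over wild-type cells, on the 1 of those 3 arrays that measured it. On the stressed arrays both channels hold the same strain, so the ratio of a deleted gene cannot check the label there, and such ratios varied, as for RPD3 on rpd3Δ arrays (-1.79 at 30 min of H2O2, 1.16 at 40 min and 2.63 at 5 min of heat shock) and MSN4 on msn2Δ msn4Δ arrays (0.44, 1.39 and 1.52). Of the arrays at 30 min of H2O2, 2 stood apart: the median over the members was 0.19 on ume6Δ replicate 4, against 0.97 to 1.03 on the other ume6Δ arrays, and 0.66 on wild-type replicate 8, against 0.95 to 1.29 on the other wild-type arrays. The median absolute deviation (MAD) over all genes, the spread of an array, was 0.58 to 0.74 on rpd3Δ arrays and 0.74 to 1.07 on wild-type arrays.

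**Figure D1:**
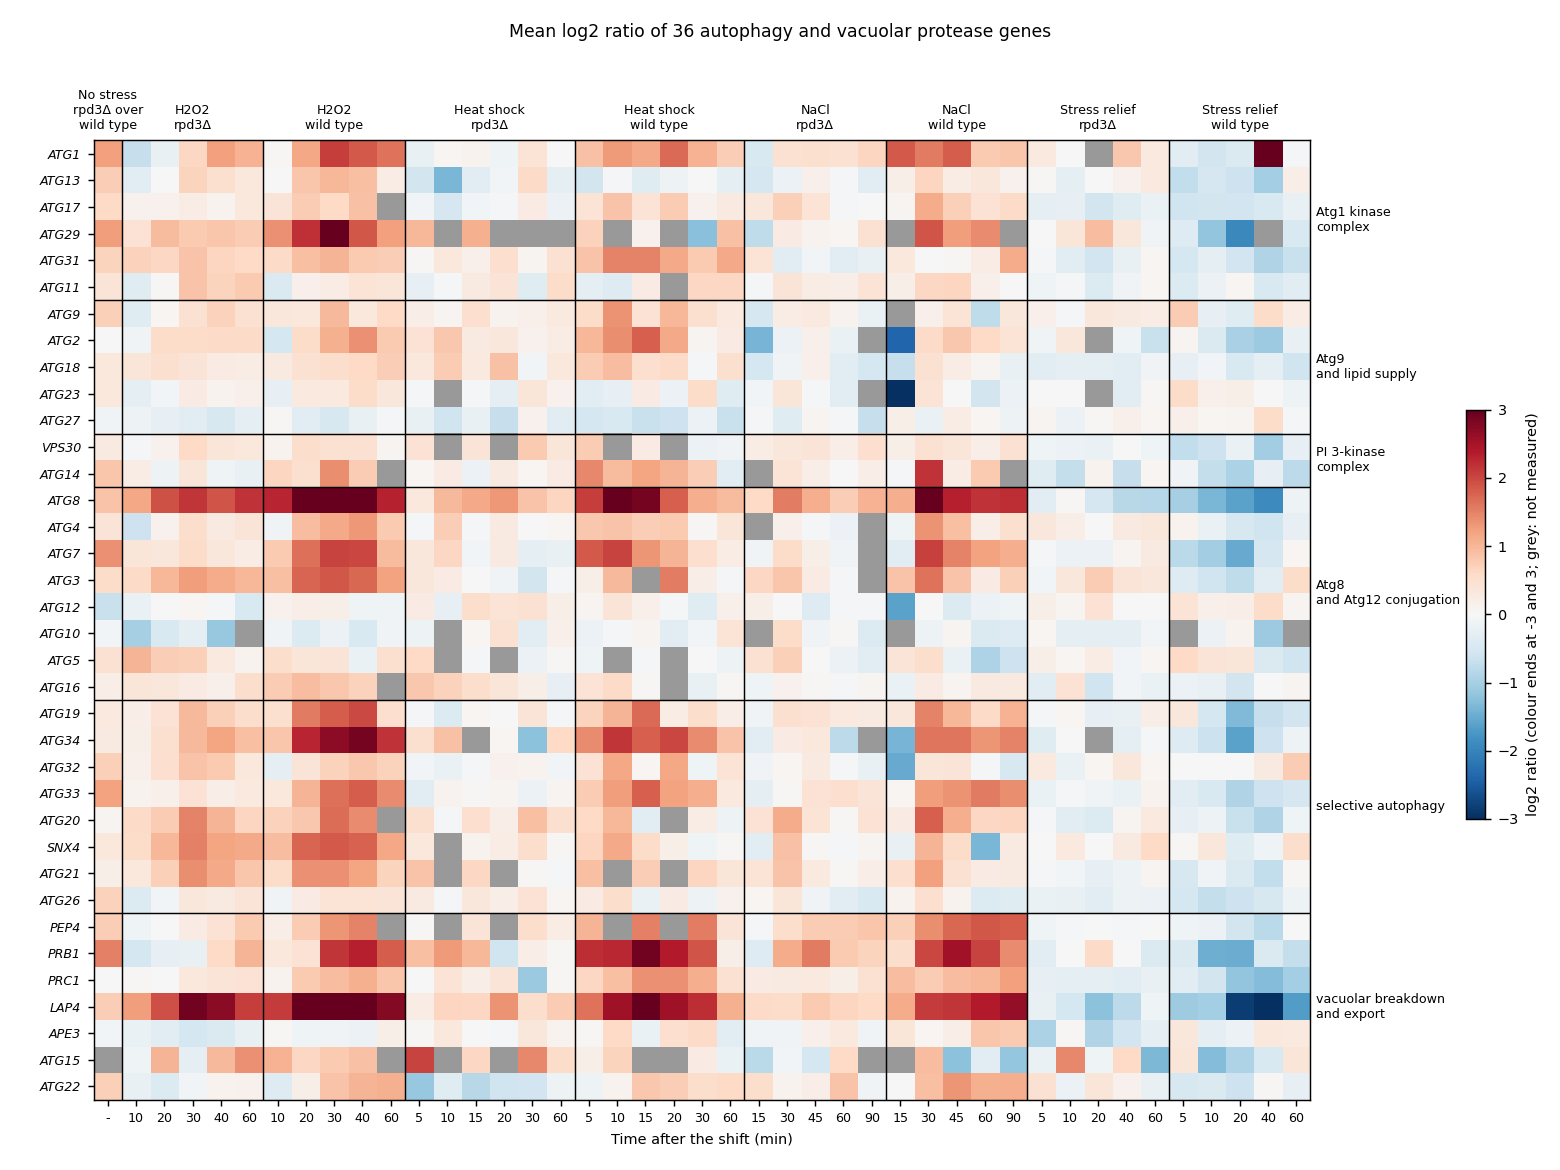
Mean log2 ratio of the 36 genes (rows, by role) in unstressed rpd3Δ over wild-type cells (first column) and at each time (min) of H2O2, heat shock, NaCl and stress relief, with rpd3Δ left of wild type in each pair of blocks. Red is higher and blue lower than in unstressed cells (in stress relief, than in cells at 37°C) and in the first column than in wild-type cells. Grey was not measured, and LAP4 and ATG8 in wild-type cells are past the end of the colour scale at 20, 30 and 40 min of H2O2.

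In wild-type cells H2O2 raised most of the autophagy genes. Of 33 members tested at 30 min, 26 rose and 1 fell at a false discovery rate (FDR) of 0.01 (limma, Benjamini-Hochberg), while of all genes tested 67.2% were called, 34.2% up and 33.1% down. The median of the 33 members was 0.99 on the log2 scale, against 0.01 for all genes. The largest rise among them was that of LAP4 (YKL103C), which encodes aminopeptidase I, the main cargo of the Cvt pathway, at 3.83 ± 0.16 (SE, n = 8). All 8 members for selective autophagy rose, as did 5 of 6 in the Atg1p kinase complex and 5 of 6 tested for vacuolar breakdown and export. The 1 member that fell was ATG27, a helper of Atg9p traffic, at -0.48 ± 0.11. ATG8, ATG14 and ATG15 were measured on under 80% of the arrays of this fit and were not tested in it. Without that filter ATG8 lay at 3.47 ± 0.21 in wild-type cells (n = 4, adjusted p = 2.0e-10 by limma).

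Part of the same set was higher in rpd3Δ cells before any stress. In unstressed rpd3Δ over wild-type cells 11 of 33 members tested were higher and 0 lower at an FDR of 0.05, against 7.01% and 7.23% of all genes. The median was 0.39 for the members and -0.01 for all genes. Of 26 members measured on all 3 arrays, 15 were above 0 on each of them, and of all genes 26.1% were. The 11 genes were ATG13, ATG17, ATG31, ATG9, ATG7, ATG32, ATG33, ATG26, PEP4, PRB1 and LAP4, with estimates from 0.61 for ATG17 to 1.52 for PRB1. The third array had the wider spread (MAD 0.53, against 0.40 on each of the others) and 18 of its 28 measured members above 0. These calls rest on few arrays: without each array in turn 4, 6 and 9 members were called, and 3 were called when the 3 arrays were fitted alone. With every array scaled to the same MAD, which enlarges the values of these arrays of low spread, 22 were called. With the replicate number as a block 1 was.

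The change from unstressed to stressed cells was then compared between the strains. At 30 min the log2 change was lower in rpd3Δ than in wild-type cells for 11 of 33 members and higher for 1. Of all genes 9.2% were lower and 14.2% higher (23.4% in either direction). Here and below, lower and higher give the sign of the difference. For a gene that falls in wild type, a higher change can therefore be a weaker fall. The median difference was -0.43 for the members and 0.02 for all genes. The 11 genes were ATG1, ATG29, ATG7, ATG19, ATG34, ATG33, PEP4, PRB1, PRC1, LAP4 and ATG22, and the gene with the higher change was ATG11. Of these 12 calls, those of ATG29, ATG7, ATG34, ATG33, PEP4 and PRB1 held under all 18 alternatives. Without rpd3Δ replicate 1 or without rpd3Δ replicate 3 there were 6 calls. With every array scaled to the same MAD 7 were called and the median difference was -0.13. Such scaling also evens out any difference between strains in the overall size of the response.

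In pho23Δ cells, which lack a subunit of Rpd3L only, 11 of 33 members had lower changes than in wild type and 0 higher. Of all genes 7.95% were lower and 9.75% higher, and the median difference of the members was -0.51. With every array scaled to the same MAD 7 were called, and without 1 array in turn 9 to 14. The genes were ATG13, ATG29, ATG2, ATG7, ATG19, ATG34, ATG33, PEP4, PRB1, PRC1 and LAP4. In rco1Δ cells, which lack a subunit of Rpd3S, 0 of 33 passed, against 0.482% of all genes higher and 0.154% lower, and the median difference was -0.06. By limma 1 member had an unadjusted p under 0.05, and the share of all genes at that p was not counted. The rpd3Δ and pho23Δ comparisons share the 8 wild-type arrays. The difference between the deletion strains was not tested.

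**Figure D2:**
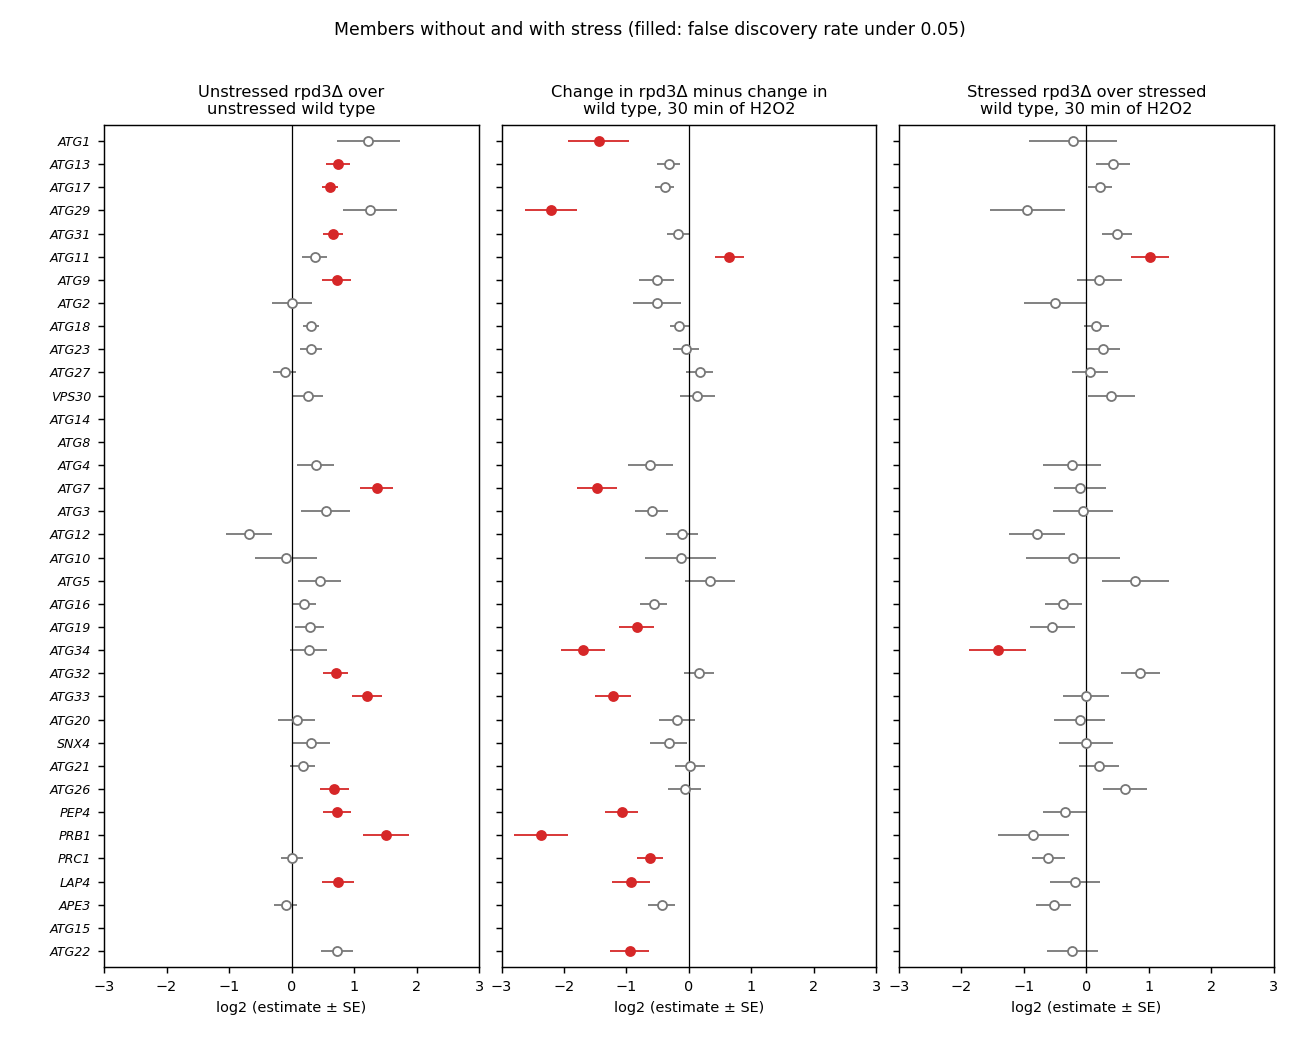
Log2 estimates with SE of each tested member (rows, by role) for unstressed rpd3Δ over wild-type cells, for the change in rpd3Δ minus that in wild-type cells at 30 min of H2O2, and for their sum, the level of stressed rpd3Δ over stressed wild-type cells. Filled red points passed an FDR of 0.05, 11 above 0 on the left, 11 below and 1 above 0 in the middle, and 1 on each side on the right.

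The sum of these estimates gives the level of stressed rpd3Δ over stressed wild-type cells at 30 min, and is no measurement of its own. Of 33 members, ATG11 was higher at 1.02 ± 0.31 (adjusted p = 0.021) and ATG34 lower at -1.42 ± 0.46 (adjusted p = 0.032, limma), against 10.7% and 5.86% of all genes. The median was -0.11 for the members and -0.01 for all genes. PRB1 lay at -0.85 ± 0.57, LAP4 at -0.19 ± 0.40, ATG7 at -0.11 ± 0.41 and ATG33 at -0.01 ± 0.37, none of which passed. A p above the threshold does not show equal levels. This result depends on the scale of the arrays: scaled to the same MAD, 15 members were called and the median was 0.65. That scaling enlarges the unstressed term (array MAD 0.40 to 0.53) relative to the wild-type change (0.74 to 1.07) before they are summed. For members that rise in wild type, part of the upward shift therefore comes from the scaling itself. The share of all genes called under it was not counted.

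By role, the genes of the Atg1p kinase complex come first. ATG1 (YGL180W), the protein kinase that starts autophagosome formation, changed by 0.78, 0.62 and 0.48 on the rpd3Δ arrays and by 0.85, 1.15 and 0.58 on the pho23Δ arrays, against 1.25 to 2.58 with a median of 2.26 on 7 wild-type arrays. All rpd3Δ and pho23Δ arrays lay below all wild-type arrays. The difference from wild type was -1.45 ± 0.49 in rpd3Δ cells (adjusted p = 0.034) and -1.22 ± 0.49 in pho23Δ cells (adjusted p = 0.090, limma), and only that in rpd3Δ cells passed. In unstressed cells ATG1 was measured on 2 arrays, at 1.41 and 1.06, and the estimate did not pass (adjusted p = 0.11). The call for rpd3Δ is weak, since it was kept under 8 of 18 alternatives.

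ATG29 (YPL166W), a subunit of the scaffold on which Atg1p gathers, had the largest difference in this complex. Its change was 0.89, 0.74 and 0.70 in rpd3Δ cells and 1.22, 0.65 and 1.17 in pho23Δ cells, against 2.11 to 5.38 with a median of 2.59 on 8 wild-type arrays. Every rpd3Δ and pho23Δ array lay below the lowest wild-type array, and wild-type replicate 3 held the 5.38. The difference was -2.21 ± 0.42 in rpd3Δ cells (adjusted p = 0.00033) and -1.97 ± 0.42 in pho23Δ cells (adjusted p = 0.0017, limma).

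ATG13, ATG17 and ATG31, the regulatory and scaffold subunits, were called in unstressed cells but not for the change in rpd3Δ cells. ATG13 was at 0.66 and 0.84 on the 2 unstressed arrays that measured it, with an estimate of 0.75 ± 0.19 (adjusted p = 0.0081). ATG17 was at 0.55, 0.43 and 0.86, with 0.61 ± 0.13 (adjusted p = 0.0016). ATG31 was at 0.38, 0.16 and 1.46, with 0.66 ± 0.16 (adjusted p = 0.0037 by limma), and the third array holds most of its rise. Their differences at 30 min of H2O2 were -0.32, -0.39 and -0.17, and none of these passed.

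ATG11 (YPR049C), the scaffold for selective autophagy, went the other way. It changed by 0.66, 0.92 and 1.01 in rpd3Δ cells, against -0.33 to 0.52 with a median of 0.18 in wild-type cells. All 3 rpd3Δ arrays lay above all 8 wild-type arrays, and the difference of 0.64 ± 0.23 had an adjusted p of 0.045 (limma). It is the only member called with a higher change in rpd3Δ cells, and its call was kept under 9 of 18 alternatives.

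Among the genes for Atg9p and lipid supply, ATG9 (YDL149W) encodes the membrane protein of the vesicles that seed the phagophore. It was at 0.97, 0.60 and 0.62 on the arrays of unstressed rpd3Δ over wild-type cells, with an estimate of 0.73 ± 0.23 (adjusted p = 0.032, limma). That call was lost in all 3 fits that left out 1 of these arrays. After 30 min of H2O2 it changed by 0.14, 0.71 and 0.51 in rpd3Δ cells, against 0.29 to 1.65 with a median of 0.86 in wild-type cells. The groups overlap, and the difference of -0.52 ± 0.28 did not pass (adjusted p = 0.19, limma). ATG2, which carries lipid to the phagophore, passed in pho23Δ cells at -1.58 ± 0.38 and not in rpd3Δ cells, where the estimate was -0.51. ATG18, which binds phosphatidylinositol 3-phosphate together with Atg2p, and ATG23, a helper of Atg9p traffic, had differences of -0.15 and -0.05 in rpd3Δ cells. In the lipid kinase complex, VPS30 had a difference of 0.14. ATG14, tested without the filter only, had one of -1.04 ± 0.36 (adjusted p = 0.043, limma).

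ATG8 (YBL078C) encodes the ubiquitin-like protein that is joined to a membrane lipid and sets the size of the autophagosome. It is known as a target of repression by Ume6p in growing cells. It was at 0.51, 0.61 and 1.43 in unstressed rpd3Δ over wild-type cells, above 0 on all 3 arrays. At 30 min of H2O2 it changed by 1.96, 2.41 and 2.06 in rpd3Δ cells and by 2.43 and 2.19 in pho23Δ cells, against 3.67, 4.11, 3.00 and 3.08 in wild-type cells. Each deletion strain lay below all wild-type arrays. In the fit without the filter the unstressed estimate was 0.85 ± 0.24 (adjusted p = 0.030), the difference in rpd3Δ cells was -1.32 ± 0.32 (adjusted p = 0.0076) and that in pho23Δ cells -1.15 ± 0.36 (adjusted p = 0.040, limma). The level of stressed rpd3Δ over stressed wild-type cells was -0.48 ± 0.40 (adjusted p = 0.49, limma). ATG8 was empty on all ume6Δ arrays, so the strain without its known repressor gives no value.

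ATG7 (YHR171W), the E1-like enzyme that activates both Atg8p and Atg12p, was called in the unstressed, the rpd3Δ and the pho23Δ comparison. It was at 1.45, 1.20 and 1.46 in unstressed rpd3Δ over wild-type cells, a 2.58-fold higher level (adjusted p = 0.00065, limma). It changed by 0.41, 0.77 and 0.47 in rpd3Δ cells and by 0.67, 0.72 and 0.64 in pho23Δ cells, against 1.72 to 2.34 with a median of 2.11 on 7 wild-type arrays. No array of either deletion strain came near the wild-type range. The differences were -1.47 ± 0.32 in rpd3Δ cells (adjusted p = 0.0011) and -1.35 ± 0.32 in pho23Δ cells (adjusted p = 0.0037, limma). In rco1Δ cells ATG7 changed by 1.92, 1.93 and 2.06, within the wild-type range.

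The other conjugation genes moved less. ATG3, the E2-like enzyme for Atg8p, rose by 1.85 ± 0.14 in wild-type cells and differed by -0.60 in rpd3Δ cells, and ATG4, the protease that processes Atg8p, rose by 1.15 ± 0.19 and differed by -0.62. Neither difference passed. ATG12, ATG10 and ATG5, which make up the Atg12p to Atg5p conjugate or join it, did not pass in wild-type cells, with 0.19, -0.17 and 0.38. ATG16, which binds that conjugate, rose by 0.81 ± 0.11. In unstressed cells ATG12 lay at -0.67 and ATG3 at 0.55, each on 1 array.

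In selective autophagy ATG19 (YOL082W) and ATG34 (YOL083W) encode related cargo receptors and lie next to each other in the RefSeq annotation. ATG34 changed by 0.82, 1.10 and 1.00 in rpd3Δ cells and by 0.96, 0.76 and 1.04 in pho23Δ cells, against 1.64 to 3.11 with a median of 2.84 in wild-type cells. ATG19 changed by 0.89, 1.12 and 0.91 in rpd3Δ cells, against 1.16 to 2.20 with a median of 1.96. All rpd3Δ arrays lay below all wild-type arrays for each gene. The difference was -1.70 ± 0.35 for ATG34 (adjusted p = 0.00075) and -0.84 ± 0.27 for ATG19 (adjusted p = 0.025, limma). Before stress ATG34 was at 0.52, 0.35 and -0.02 and ATG19 at 0.18, 0.49 and 0.21, and neither passed. The array probes are not described in the sources used here, so cross-hybridization between this pair was not tested.

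ATG33 (YLR356W), a mitochondrial protein needed for part of mitophagy, was at 1.13, 1.07 and 1.43 in unstressed rpd3Δ over wild-type cells (1.21 ± 0.24, adjusted p = 0.00083, limma). It changed by 0.44, 0.42 and 0.44 in rpd3Δ cells, against 0.66 to 2.11 with a median of 1.72 in wild-type cells, and the rpd3Δ arrays were all lower. The difference was -1.22 ± 0.28 (adjusted p = 0.0021, limma), close in size to the unstressed estimate. ATG32, the mitophagy receptor, was at 0.90, 0.80 and 0.43 in unstressed cells (0.71 ± 0.20, adjusted p = 0.017) but differed by 0.16 after H2O2 and did not pass. ATG26, a sterol glucosyltransferase, was at 1.09, 0.84 and 0.14 in unstressed cells (0.69 ± 0.23, adjusted p = 0.043, limma), with a difference of -0.07 after H2O2. ATG20, SNX4 and ATG21, which bind phosphoinositides in the Cvt pathway, rose by 1.68, 1.84 and 1.38 in wild-type cells and differed by -0.19, -0.33 and 0.02 in rpd3Δ cells, so that the strong rise of this trio was not called different.

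**Figure D3:**
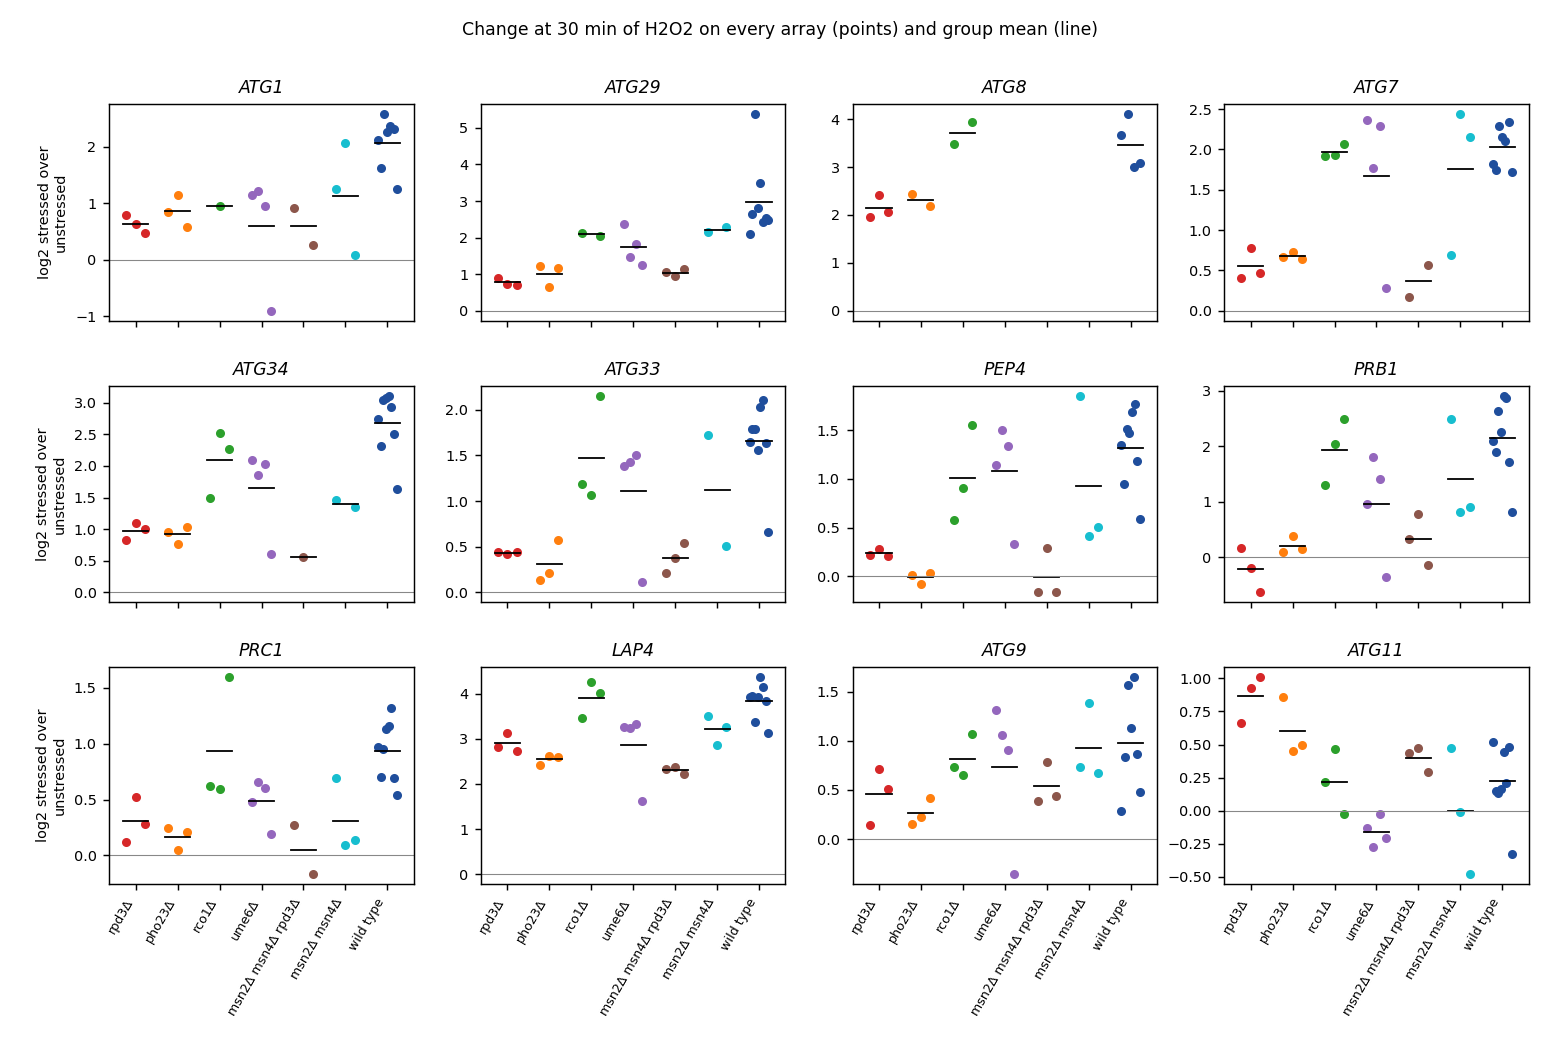
Log2 change at 30 min of H2O2 on every array (points) and group mean (line) for 12 members, with the deletion strains left of wild type. For ATG7 the rpd3Δ and pho23Δ points lie between 0.41 and 0.77 and the wild-type points between 1.72 and 2.34, while for ATG11 the rpd3Δ points lie above the wild-type points.

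The genes for vacuolar breakdown and export held the largest share of calls, 5 of 6 tested in rpd3Δ and 4 of 6 in pho23Δ cells. PRB1 (YEL060C), proteinase B, had the largest difference of all members in rpd3Δ cells. It changed by 0.17, -0.19 and -0.63 in rpd3Δ cells and by 0.10, 0.38 and 0.14 in pho23Δ cells, against 0.82 to 2.91 with a median of 2.18 in wild-type cells. Every array of the deletion strains lay below every wild-type array. The difference was -2.37 ± 0.43 in rpd3Δ cells (adjusted p = 0.00014) and -1.94 ± 0.43 in pho23Δ cells (adjusted p = 0.0019, limma). In unstressed rpd3Δ over wild-type cells PRB1 was at 1.69, 1.53 and 1.34, a 2.86-fold higher level (adjusted p = 0.0048, limma).

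PEP4 (YPL154C), proteinase A, cuts and so activates the other hydrolases. It changed by 0.22, 0.27 and 0.21 in rpd3Δ cells and by 0.01, -0.08 and 0.03 in pho23Δ cells, against 0.59 to 1.77 with a median of 1.41 in wild-type cells. Again no deletion array reached the lowest wild-type array. The difference in rpd3Δ cells was -1.08 ± 0.26 (adjusted p = 0.0031, limma), and in unstressed cells PEP4 was at 0.96, 0.78 and 0.46 (adjusted p = 0.027, limma).

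LAP4 changed by 2.82, 3.13 and 2.73 in rpd3Δ cells and by 2.41, 2.62 and 2.60 in pho23Δ cells, against 3.12 to 4.36 with a median of 3.92 in wild-type cells. Of all members it kept the largest rise in rpd3Δ cells, and 1 rpd3Δ array overlapped the wild-type range. The difference was -0.93 ± 0.30 in rpd3Δ cells (adjusted p = 0.024, limma), and it was 0.17 with every array scaled to the same MAD. In unstressed cells LAP4 lay at 1.28, 1.21 and -0.24, and its call there (adjusted p = 0.049) was kept under 4 of 10 alternatives.

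PRC1 (YMR297W), carboxypeptidase Y, was at 0.31, 0.13 and -0.40 in unstressed cells and was not called there. It changed by 0.12, 0.52 and 0.28 in rpd3Δ cells, against 0.54 to 1.32 with a median of 0.96 in wild-type cells (difference -0.62 ± 0.20, adjusted p = 0.024, limma). ATG22 (YCL038C), which exports amino acids from the vacuole, changed by -0.10, -0.17 and -0.01 in rpd3Δ cells, against 0.27 to 1.44 with a median of 0.87 in wild-type cells (difference -0.95 ± 0.31, adjusted p = 0.023, limma). For both genes the rpd3Δ arrays were all below the wild-type arrays. APE3, aminopeptidase Y, moved by -0.10 in wild-type cells and was not called. ATG15, the lipase that opens autophagic bodies, had 2 values in rpd3Δ cells, -0.68 and 0.12, against -0.32 to 1.37 with a median of 0.95 on 8 wild-type arrays, which overlap.

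Counted over all 36 members and without a test, the rpd3Δ arrays lay entirely below the wild-type arrays for 15 members and entirely above for 1, against 11.0% and 14.7% of all genes with at least 2 arrays in each group. For pho23Δ they lay below for 16 and above for 0, against 9.3% and 10.1% of all genes.

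The inhibitors of these proteases shared the pattern in part. PBI2, the inhibitor of proteinase B, was at 1.44, 1.66 and 1.40 in unstressed rpd3Δ over wild-type cells, and changed by 0.30, 0.84 and 0.09 in rpd3Δ cells, against 0.95 to 2.25 with a median of 1.77 in wild-type cells. The difference was -1.37 ± 0.22 (adjusted p = 4.05e-05, limma). TFS1, the inhibitor of carboxypeptidase Y, differed by -2.04 ± 0.50 in rpd3Δ cells (adjusted p = 0.0032, limma) and was higher by 1.33 ± 0.43 in unstressed cells. PAI3, the inhibitor of proteinase A, did not pass in either, with -0.23 ± 0.46 and 0.11 ± 0.40. A list of 46 other genes of autophagy, vacuole fusion and its regulation was tested, with the inhibitors among them. In unstressed rpd3Δ cells 6 were higher and 1 lower, against 7.01% and 7.23% of all genes. At 30 min of H2O2 the change was lower than in wild type for 9 and higher for 1. Of all genes 9.2% were lower and 14.2% higher. Besides the inhibitors, AMS1 (vacuolar α-mannosidase, a Cvt cargo), PHO8 (vacuolar alkaline phosphatase), ATG36 (pexophagy receptor) and UME6 were higher in unstressed cells, and VPS41 (vacuole tethering) was lower. AMS1, ATH1 (acid trehalase), ATG42 (vacuolar carboxypeptidase), VAC8, NVJ1, NPR2 and SNF1 had lower changes after H2O2 in rpd3Δ than in wild-type cells, and UME6 a higher one. UME6 itself was at 1.49 and 1.47 on the 2 unstressed arrays that measured it.

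Loss of the other regulators gave few calls. In ume6Δ cells 0 of 33 members differed from wild type, against 1.1% of all genes, and the median difference was -0.35. An unadjusted p under 0.05 (limma) was found for 10, and the share of all genes at that p was not counted. Without ume6Δ replicate 4 the median difference was -0.08 with 0 calls, and without wild-type replicate 8 there were 4 calls. PRB1, for example, changed by 0.96, 1.80, 1.42 and -0.35 on the ume6Δ arrays, of which the last is replicate 4. In msn2Δ msn4Δ cells 0 of 33 differed from wild type, against 4.63% of all genes, and the median difference was -0.32. Here 7 members had an unadjusted p under 0.05 (limma), again without a count over all genes. Without msn2Δ msn4Δ replicate 1 there were 4 calls, and without wild-type replicate 8 there were 3. LAP4 still changed by 3.50, 2.87 and 3.26 in msn2Δ msn4Δ cells, and PRB1 by 2.50, 0.82 and 0.91.

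The msn2Δ msn4Δ rpd3Δ cells were compared with msn2Δ msn4Δ cells to give the effect of RPD3 without the activators. ATG7 changed by 0.17 and 0.56 in the triple mutant, against 0.70, 2.44 and 2.15 in the double mutant. The triple mutant lay below each array of the double mutant, and ATG7 was the only member of 33 called (-1.39 ± 0.42, adjusted p = 0.034, limma), against 2.8% of all genes lower and 6.05% higher (8.85% in either direction). This call was lost with every array scaled to the same MAD and without any 1 of the triple mutant arrays, with 0 members called in each of these. The median difference was -0.37. Whether the effect of RPD3 differed with and without MSN2 and MSN4 was tested directly, with 0 of 33 members and 0 of 5177 genes called and 0 members at an unadjusted p under 0.05 (limma). Against rpd3Δ cells the triple mutant gave 0 calls of 33, against 0.309% of all genes (0.251% lower, 0.0579% higher), with 0 members at an unadjusted p under 0.05.

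In H4KQ cells the log2 change was lower than in NSY429 cells for 2 of 33 members and higher for 0. Of all genes 0.813% were lower and 0.716% higher. ATG17 changed by -0.26 and -0.31 in H4KQ cells, against 0.94, 0.45 and 0.44 in NSY429 cells (-0.89 ± 0.20, adjusted p = 0.019, limma). ATG34 changed by 0.64 and -1.41 in H4KQ cells, against 1.76 and 1.82 in NSY429 cells (-2.17 ± 0.51, adjusted p = 0.028, limma). The H4KQ arrays were lower throughout for both genes, and the values of ATG34 were far apart from each other. PRB1 was at -0.72, -0.26 and -1.92 in H4KQ cells, against 0.31, 0.57 and 1.66 in NSY429 cells, and did not pass (-1.81 ± 0.52, adjusted p = 0.065, limma). Counted without a test, the H4KQ arrays lay entirely below the NSY429 arrays for 10 of 31 members and entirely above for 0, against 11.6% and 13.5% of all genes. Fitted alone, these 2 strains gave 0 calls.

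The H2O2 time course, with 1 array per strain and time, places these changes in time. In wild-type cells 16 members measured at all times went over 1 on the log2 scale, and 8 of them were highest at 40 min, 5 at 30 min, 2 at 20 min and 1 at 60 min. Over 10, 20, 40 and 60 min the median of the members ran 0.07, 0.14, 0.45 and 0.46 in rpd3Δ cells, against 0.31, 0.76, 0.95 and 0.74 in wild-type cells. The change in rpd3Δ cells was below that in wild type for 29 of 36 members at 10 min, 31 of 36 at 20 min, 28 of 34 at 30 min, 31 of 36 at 40 min and, in the last sample at 60 min, 24 of 29. For all genes the share below wild type was 42.9% to 54.1% at these times. In pho23Δ cells the members below wild type were 26 of 34 at 10 min, 28 of 35 at 20 min and 29 of 35 at 30 min. They were 25 of 31 at 40 min and 17 of 29 at 60 min, against 44.6% to 50.1% of all genes over these times.

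**Figure D4:**
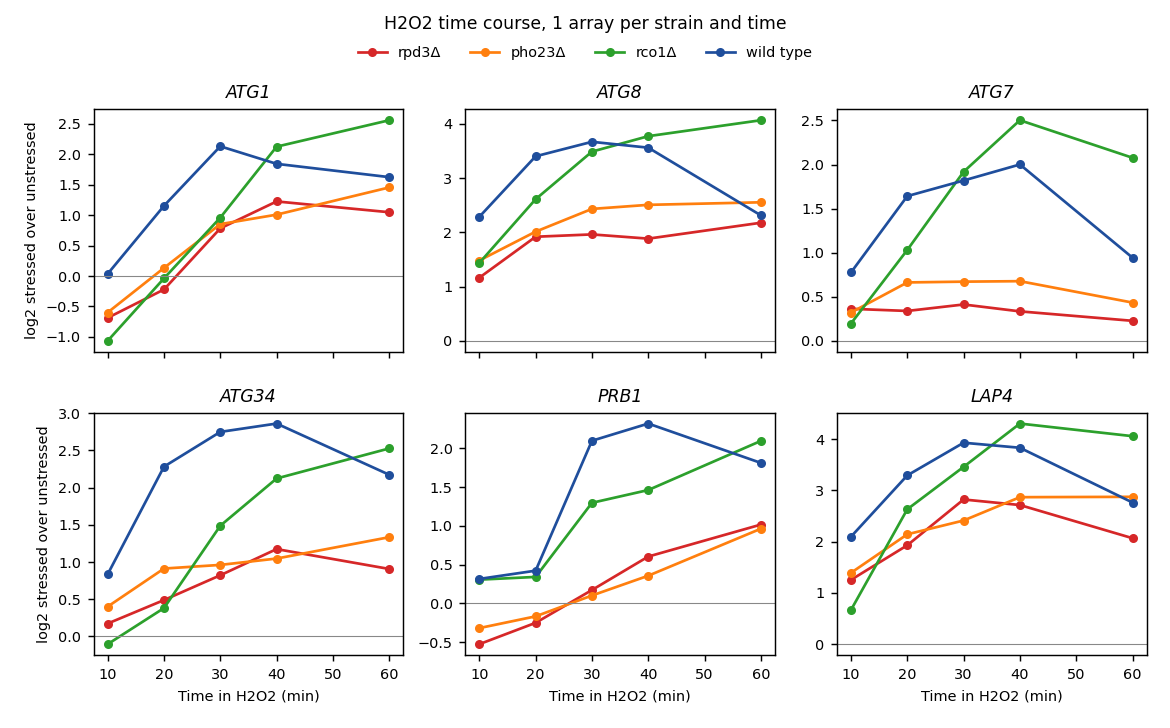
Log2 ratio of stressed over unstressed cells (vertical) against time in H2O2 (10 to 60 min) for 6 members in rpd3Δ, pho23Δ, rco1Δ and wild-type cells, 1 array per point. For ATG8 the strains lie between 1.16 and 2.29 at 10 min, and at 60 min rco1Δ is at 4.07 while rpd3Δ, pho23Δ and wild type are between 2.18 and 2.55.

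The shapes differed between members. ATG8 in rpd3Δ cells was at 1.16, 1.92, 1.96, 1.88 and 2.18 over the 5 times, against 2.29, 3.40, 3.67, 3.56 and 2.31 in wild-type cells. Its curve in rpd3Δ cells stayed flat after 20 min, and at 60 min the wild-type value was lower than at 20 to 40 min. ATG7 in rpd3Δ cells stayed between 0.23 and 0.41 at all times, against a highest value of 2.00 at 40 min in wild-type cells. PRB1 in rpd3Δ cells was at -0.53, -0.25, 0.17, 0.60 and 1.02, against 0.32, 0.42, 2.10, 2.32 and 1.81 in wild-type cells, so that it was still going up at the last time. The order of rco1Δ and wild-type cells turned with time: in rco1Δ cells, members below wild type were 27 of 36 at 10 min, 32 of 36 at 20 min, 24 of 36 at 30 min, 17 of 35 at 40 min and 5 of 29 at 60 min, against 42.5%, 51.8%, 54.6%, 51.1% and 49.1% of all genes, with a median of 1.25 in rco1Δ cells at 60 min. With 1 array per point none of these differences was tested.

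Heat shock and NaCl were each followed in 2 cultures per strain, and the culture was the replicate, with 1 value for each from the times that both cultures share. In NaCl 16 of 33 members rose in wild-type cells and 0 fell at an FDR of 0.01, against 10.9% and 12.5% of all genes (23.4% in either direction), with a median of 0.74 for the members and -0.04 for all genes. ATG8 gave 3.03 and 2.55 in the wild-type cultures, LAP4 2.33 and 2.16, PRB1 2.13 and 1.92, PEP4 1.64 and 1.62, and ATG7 1.82 and 1.44. Without wild-type culture 1 there were 0 calls, without wild-type culture 2 there were 3, and with every array scaled to the same MAD there were 2.

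The log2 change in NaCl was lower in rpd3Δ cells for 3 of 33 members and higher for 0 at an FDR of 0.05. Of all genes 1.35% were lower and 2.24% higher (3.59% in either direction). The median difference of the members was -0.59. ATG7 gave 0.32 and 0.13 in the rpd3Δ cultures, against 1.82 and 1.44 in the wild-type cultures (-1.40 ± 0.22, adjusted p = 0.042, limma). ATG34 gave -0.33 and 0.11 against 1.65 and 1.30 (-1.58 ± 0.25, adjusted p = 0.042), and LAP4 0.46 and 0.71 against 2.33 and 2.16 (-1.66 ± 0.20, adjusted p = 0.036, limma). The cultures of the strains were apart for each of these genes. ATG8 gave 0.80 and 1.46 in the rpd3Δ cultures, against 3.03 and 2.55, and just missed (-1.65 ± 0.31, adjusted p = 0.055, limma). These calls were lost without any 1 of the cultures, where 0 members were called.

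In heat shock 3 of 28 members rose in wild-type cells, ATG8, PRB1 and LAP4, and 0 fell, against 4.36% and 3.87% of all genes (8.23% in either direction). ATG8 gave 0.66 and 0.56 in the rpd3Δ cultures, against 1.41 and 1.34 in the wild-type cultures. PRB1 gave 0.46 and 0.29, against 1.82 and 1.03, and LAP4 gave 0.40 and 0.60, against 1.73 and 1.54. Each rpd3Δ culture was lower than each wild-type culture for all 3 genes. Without either wild-type culture 0 members were called in wild-type heat shock, and without either rpd3Δ culture 7 were. The strain difference was called for 0 of 28 members and 0 of 4522 genes, and the median difference was -0.26. For this difference 8 members had an unadjusted p under 0.05 (limma), and the share of all genes at that p was not counted. PEP4 was not measured in heat shock culture 2 and was not tested.

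The widest gap in heat shock came at a time outside the shared ones. At 10 min of culture 2, 25 of 27 members were lower in rpd3Δ than in wild-type cells, with a median difference of -0.98, while 53.1% of all genes were lower. There ATG8 was at 0.96 in rpd3Δ cells, against 3.05 in wild-type cells, and LAP4 at 0.65 against 2.55. At 60 min of the same culture the median difference was -0.28. By the labels, the heat shock values of culture 2 compare rpd3Δ cells from 30°C with wild-type cells from 25°C, while the methods give 25°C for these time courses. If the labels hold, starting temperature and strain cannot be told apart there.

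**Figure D5:**
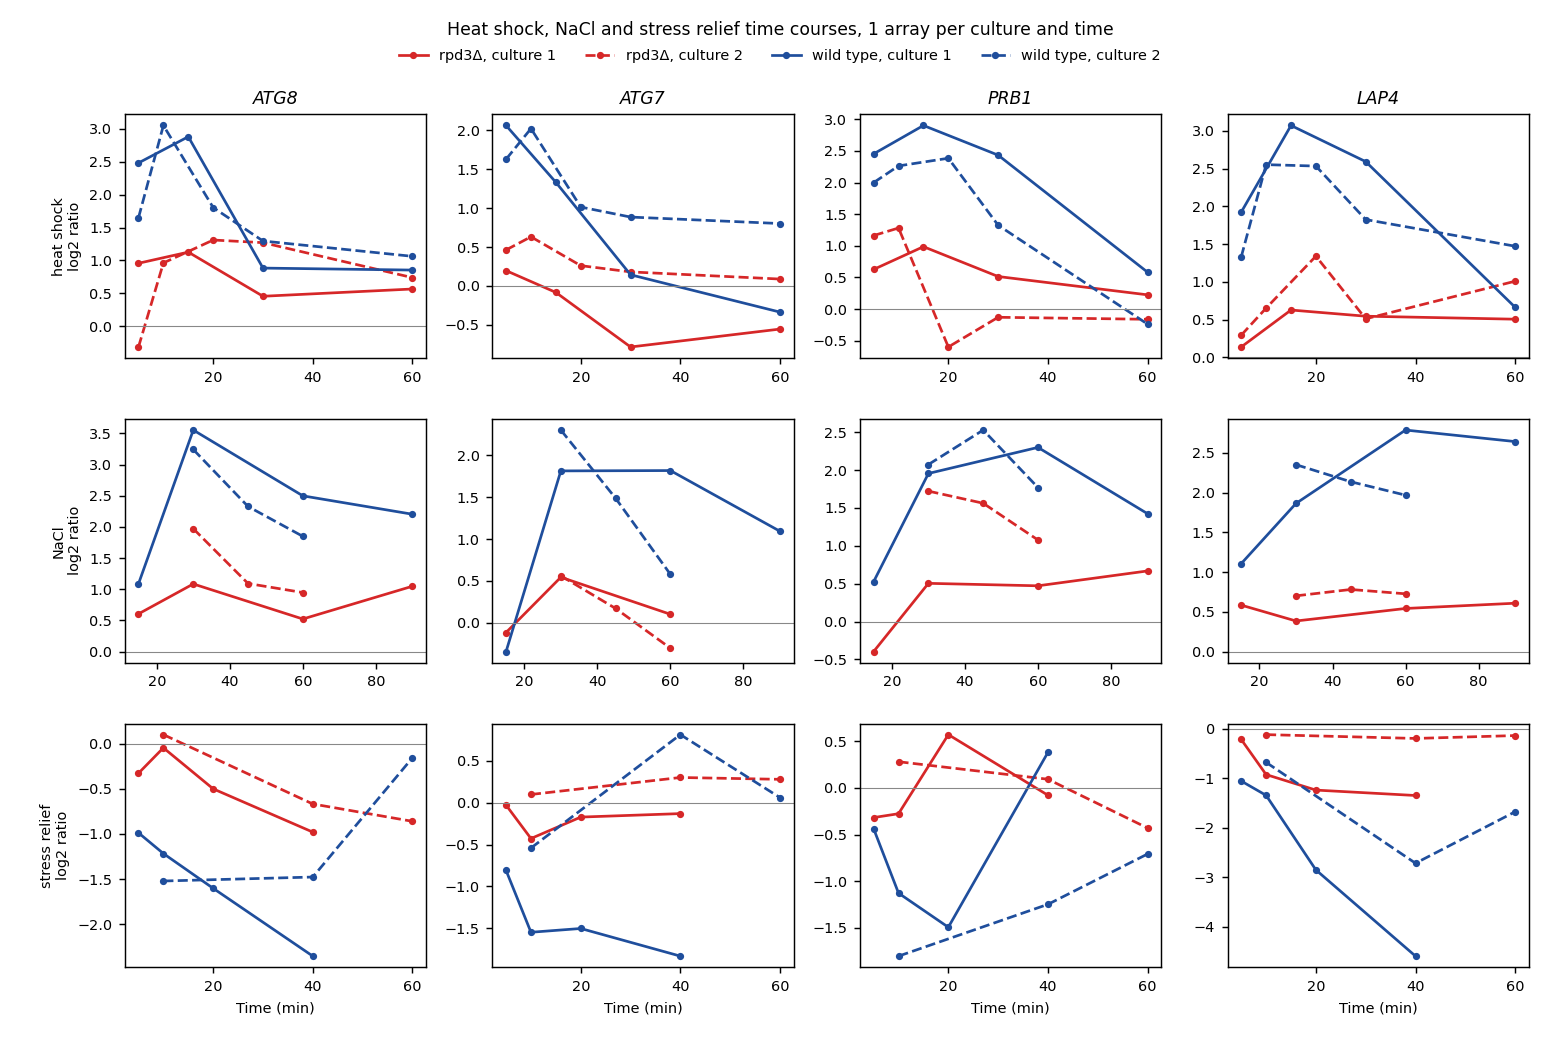
Log2 ratio (vertical) against time (min) of ATG8, ATG7, PRB1 and LAP4 in heat shock, NaCl and stress relief, with 2 cultures of rpd3Δ (red) and 2 of wild type (blue), 1 array per point. At 5 min of heat shock and 30 min of NaCl the rpd3Δ points lie below the wild-type points, and in stress relief LAP4 was at -1.35 at 40 min in rpd3Δ culture 1 and at -4.59 in wild-type culture 1.

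When cells were returned to 25°C after growth at 37°C, the median of the members in wild-type cells was below 0. Of 34 tested, 0 passed at an FDR of 0.01, as did 0 of 5109 genes, and the median was -0.48, against -0.01 for all genes. An unadjusted p under 0.05 (limma) was found for 15, and the share of all genes at that p was not counted. The cultures were not paired in this fit, though the difference between cultures 1 and 2 correlated between the strains (r = 0.64 across genes). LAP4 gave -1.14 and -0.16 in the rpd3Δ cultures, against -2.97 and -1.70 in the wild-type cultures, and ATG8 gave -0.51 and -0.28, against -1.78 and -1.50. The rpd3Δ cultures lay nearer 0 for both genes. The strain difference had 0 calls among 34 members and 5109 genes, and the median difference was 0.40. For this difference 5 members had an unadjusted p under 0.05 (limma), again without a count over all genes. In rpd3Δ cells 21 of 32 members lay above wild type at 40 min in culture 1, and 24 of 32 in culture 2. The direction of the deposited ratios could not be checked in this treatment. The descriptions of the rpd3Δ arrays of culture 2 name wild type, while their titles and channel sources name rpd3Δ, and those of rpd3Δ culture 1 give another replicate number than the titles. The titles were followed.

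Single arrays measured transcripts in cells with TSA, which inhibits several deacetylases, or with a catalytically inactive Rpd3p. In wild-type cells in heat shock, TSA arrays lay below DMSO arrays for 25 of 34 members at 5 min, 31 of 36 at 15 min and 26 of 36 at 30 min, with median differences of -0.25, -0.44 and -0.15, while 54.8%, 51.4% and 53.6% of all genes were lower. ATG8 was at 1.69, 2.15 and 1.59 with TSA, against 2.77, 3.26 and 2.31 with DMSO at these times. LAP4 was at 1.54, 2.99 and 2.84 with TSA, against 1.75, 3.23 and 2.95, so that the gap was wide for ATG8 and narrow for LAP4. At 20 min of heat shock the rpd3H150:151A plasmid gave lower values than the RPD3 plasmid for 28 of 34 members, with a median difference of -0.31, while 45.6% of all genes were lower. LAP4 was at 2.02 with rpd3H150:151A and 1.63 with the plasmid without insert, against 3.09 with RPD3, and PRB1 at 0.71 and 0.57, against 1.51. At 30 min of H2O2, 19 of 30 members were lower with rpd3H150:151A than with RPD3, with a median difference of -0.17, while 38.6% of all genes were lower. There ATG34 was at 0.38 with rpd3H150:151A, against 3.20 with RPD3, while ATG8 was at 2.25, against 1.76. These arrays have no replicates, and no test was made.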

How the data were processed

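RNA of stressed and unstressed cells was labelled with cyanine dyes and hybridised to arrays of 2 channels. The authors deposited 1 log2 ratio per gene and array, and the normalization, the background correction and the direction of the ratios are not given in the sources used here. No array was turned, since arrays of opposite dyes correlated positively across genes in each stress checked (r at least 0.242 over 162 pairs in heat shock, 54 in H2O2 and 24 in NaCl), and of 4 stress genes CTT1 lay above 0 on 86 of 86 stressed arrays checked that measured it, HSP104 on 92 of 92, SSA4 on 91 of 92 and HSP12 on 68 of 70. All 36 members matched the RefSeq names by locus tag, and promoter and protein sequences were not used here.

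Values were used as deposited. At 30 min of H2O2, 36 arrays of 9 stressed groups and of the unstressed comparison were fitted together by least squares in R 4.3.3, with variances moderated by limma 3.58.1 and Benjamini-Hochberg adjustment over every gene with a value on 80% or more of the arrays. Calls were made at an FDR of 0.01 in wild type and of 0.05 between strains. For time courses each culture gave 1 value, from a fit of culture and time over 5, 30 and 60 min of heat shock, 30 and 60 min of NaCl and 10 and 40 min of stress relief, and a missing array was filled by that fit. Part of the comparisons was also run on simulated data with independent noise for each array. Those data hold no effect shared by a culture, so they do not test the time courses in that respect. Single arrays and the H2O2 time course were described only. Other steps and figures used Python 3.11.15, pandas 2.3.3 and matplotlib 3.10.9.

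Given with every value are ATG8, ATG1, ATG9, PEP4, PRB1, LAP4 and the members called in unstressed rpd3Δ cells or for rpd3Δ against wild type in H2O2, at most 12 per comparison. Other pathway genes are named if called there, and the protease inhibitors always. The members and lists were chosen with earlier results of these data known. The number of arrays limits the precision. Replicate numbers were not taken to pair the arrays at 30 min. Of 136 pairs of equal number 30 had r over 0.1, and pairs of unequal number were not counted. Alternatives were median centring, MAD scaling, no filter, a dye covariate, a replicate block, only the groups compared, looser thresholds, all arrays of a time course, and each array or culture left out.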

Additional observations from a re-analysis of the deposited data

Results flagged for a closer look

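At 30 min of H2O2, each member's arrays in groups of 4 to 8 arrays were checked for a value far from the others (Dixon's criterion), which chance flags in about 1 of 20 groups. Of 62 such groups 13 were flagged. Of these, 5 came from ume6Δ replicate 4: ATG1 at -0.91 (others 0.96 to 1.22), ATG13 at 0.053 (others 0.76 to 0.90), ATG34 at 0.60 (others 1.87 to 2.10), ATG33 at 0.11 (others 1.38 to 1.51) and LAP4 at 1.61 (others 3.24 to 3.34). Another 4 came from wild-type replicate 8: ATG11 at -0.33 (others 0.13 to 0.52), ATG4 at 0.26 (others 1.10 to 1.63), ATG33 at 0.66 (others 1.56 to 2.11) and ATG26 at -0.62 (others 0.28 to 0.76). From wild-type replicate 3 came ATG29 at 5.38 (others 2.11 to 3.48), ATG18 at 0.31 (others 0.50 to 0.63) and ATG20 at 1.05 (others 1.61 to 2.04), and from wild-type replicate 5 came ATG12 at 0.40 (others 0.067 to 0.20).

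The arrays ume6Δ replicate 4 and wild-type replicate 8 also had the smallest spread over all genes in their groups, with MAD 0.46 and 0.74.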

How the results depend on the processing

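All counts here are of members called. Each array or culture was left out in turn, which gave 4 to 9 in unstressed rpd3Δ cells, 25 to 27 for wild type in H2O2, 6 to 12 for rpd3Δ against wild type, 9 to 14 for pho23Δ, 0 for rco1Δ, 0 to 4 for ume6Δ, 0 to 4 for msn2Δ msn4Δ, 0 to 2 for the triple against the double mutant, 0 for the triple mutant against rpd3Δ, 0 to 3 for H4KQ, 0 to 3 for the stressed level and 0 for the interaction. In the time courses it gave 0 to 7 for wild type and 0 to 1 for the strain difference in heat shock, 0 to 11 and 0 in NaCl, and 0 and 0 in stress relief. Median centring gave 2 for the triple against the double mutant and 1 for the strain difference in NaCl. Scaling to the same MAD gave 22 in unstressed cells, 7 for rpd3Δ, 7 for pho23Δ, 0 for the triple against the double mutant, 15 for the stressed level, and 2 for wild type and 0 for the strain difference in NaCl, and it turned the difference of LAP4 in rpd3Δ cells to 0.17. A dye covariate gave 1 for the stressed level. A replicate block gave 1 in unstressed cells, 2 for msn2Δ msn4Δ, 1 for H4KQ, 0 for the stressed level, 9 and 1 for wild type and the strain difference in heat shock, 0 for the strain difference in NaCl, and 5 for wild type in stress relief. Replicate numbers were not taken as a pairing in the main fits. Same-numbered cultures correlated at 0.23 in heat shock, 0.17 in NaCl and 0.64 in stress relief, 1 pair each. Whether they share an effect was not tested. Only the groups compared gave 3 in unstressed cells and 0 for H4KQ. Looser thresholds gave 1 for ume6Δ, 2 for msn2Δ msn4Δ, 3 for the triple against the double mutant, 7 for wild type in heat shock and 7 for the strain difference in NaCl. All arrays of the time courses with culture as a random block gave 9 for wild type and 3 for the strain difference in heat shock and 5 for the strain difference in NaCl, and without a culture block 15, 8 and 8, and 3 for wild type in stress relief. The cause of these shifts was not tested. Of the other values of single members under an alternative, 1048 stayed on their side of the threshold, 207 lost the call and 1 gained it. The members followed were those called in the main fit, with few others, so this count could show hardly any gain. With 2 to 4 arrays in most groups, small differences were not detectable.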
